A study of Homo sapiens with 24 samples.

Results

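The genes described here encode 48 proteins that hepatocytes secrete into plasma: carrier and transport proteins (11), factors of coagulation, anticoagulation and fibrinolysis (14), serpins (9), inter-alpha-trypsin inhibitor heavy chains (4) and components of the complement and lectin pathway (10). They were chosen as a listed set, with apolipoproteins left out, and matched by Ensembl identifier to 48 of the 58676 gene rows. RNA was sequenced from HepG2, an established human hepatoblastoma-derived liver cancer cell line, 24 libraries in all. Cells received a control siRNA (siControl) or an siRNA against IGF2BP1, IGF2BP2 or IGF2BP3, a family of RNA-binding proteins, and were collected after 0, 3 or 6 h of actinomycin D, which blocks transcription. Each of the 12 groups (4 siRNAs at 3 times) has 2 libraries, from the same cell line. The paper's legends call the 2 replicates independent, but neither they nor the labels say whether both libraries of a group came from separate cultures. P-values therefore measure the spread between these libraries, which may be technical. Bulk RNA cannot tell fewer cells of a kind from less RNA per cell.

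Plasma proteins are made and secreted chiefly by the liver. Coagulation proceeds through serine proteases (factors VII, X, XI, XII and prothrombin) and cofactors such as factor V to the cleavage of fibrinogen, a protein whose chains are encoded by FGA, FGB and FGG. Serpins and protein C limit it, and plasmin from PLG dissolves the clot. Complement is a cascade in which C3 is cleaved and C5 to C9 build a pore, while the lectin pathway starts it through MBL2 and MASP1. Acute-phase proteins are those whose hepatic output rises (such as haptoglobin, orosomucoid and fibrinogen) or falls (such as albumin and transthyretin) in inflammation. Many of these transcripts are abundant and long-lived in liver cells.

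Libraries held 31843504 to 74252494 gene reads, and synthetic ERCC spike-in RNA 50889 to 119088 reads. Over both libraries and all 3 times each siRNA left 15.5% to 21.5% (IGF2BP1), 20.8% to 26.4% (IGF2BP2) or 24.3% to 35.9% (IGF2BP3) of the mean siControl level of its own target. All 12 hepatocyte transcription factors examined (HNF4A, FOXA1 and others) were at 1 CPM or more (reads scaled to a common library total) in siControl at 0 h. PTPRC, DCN, LUM and COL1A2 had no reads in those libraries and COL1A1 at most 0.14 CPM. 1 of 6 fibroblast markers (PDGFRB, 8.15 to 8.83 CPM), 0 of 6 endothelial markers and 2 of 6 leukocyte markers (LYZ, 1065 to 1093 CPM, and CD14, 0.98 to 1.48 CPM) reached that level. Over all libraries the leukocyte list, nearly all LYZ, summed to 1066 to 2151 CPM in siControl, 809 to 1539 in siIGF2BP1, 693 to 1291 in siIGF2BP2 and 950 to 1782 in siIGF2BP3, the fibroblast list to 5.57 to 14.27 CPM and the endothelial list to 1.04 to 2.77 CPM. Their part in the results was not tested. The 2 siControl libraries at 0 h had ERCC reads equal to 0.131% and 0.150% of gene reads, and the changes over time below rest on these reads.

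Levels of the members spanned from ALB, the main plasma protein, to C9, without a read in either siControl library at 0 h. Per length, the 6 highest members in siControl at 0 h were ALB (12218 and 12306 TPM in the 2 libraries, reads per exon length, scaled to a common total), SERPINA1 (5137 and 4938 TPM), AHSG (2475 and 2402 TPM), ITIH2 (2392 and 2381 TPM), RBP4 (1562 and 1588 TPM) and AMBP (1524 and 1521 TPM). ALB ranked 12, SERPINA1 18 and AMBP 63 among all gene rows by this measure. SERPINA1 encodes alpha-1-antitrypsin, AHSG fetuin A, ITIH2 a heavy chain that binds hyaluronan, RBP4 the carrier of retinol and AMBP the precursor of alpha-1-microglobulin and bikunin. AHSG and ITIH2, neighbours in this order, differed in mean by less than the 2 AHSG libraries did, while both RBP4 libraries lay above both AMBP libraries. The next were ORM1 (1128 and 1153 TPM), FGG (990.5 and 946 TPM), C3 (865 and 858 TPM) and FGA (820.1 and 801 TPM).

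At the low end, C9, a component of the complement pore, had 9 reads and ITIH4 69 reads over all 24 libraries, and neither reached 1 CPM in 2 or more libraries, the minimum for testing. The other 46 members were tested, and their median of mean CPM was 77.9, against 19.3 over all 13136 genes tested. Of the exonic bases of ITIH4, 70.3% are also exons of another gene on the same strand. Of CFB 42.8%, SERPINA3 31.7%, CFI 29.4%, VTN 17.3% and C3 11.7% are shared with another gene. The values of these members are uncertain, because how the counting treated such reads and strand is not given in the sources used here. For the same reason KNG1, F11 and F12, with 14.1%, 13.8% and 7.1% of exonic bases facing a gene on the opposite strand, are uncertain. ORM1 and ORM2 transcripts are 95.9% identical where they align and HP and HPR 96.3%, so reads can be split between the copies.

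**Figure D1:**
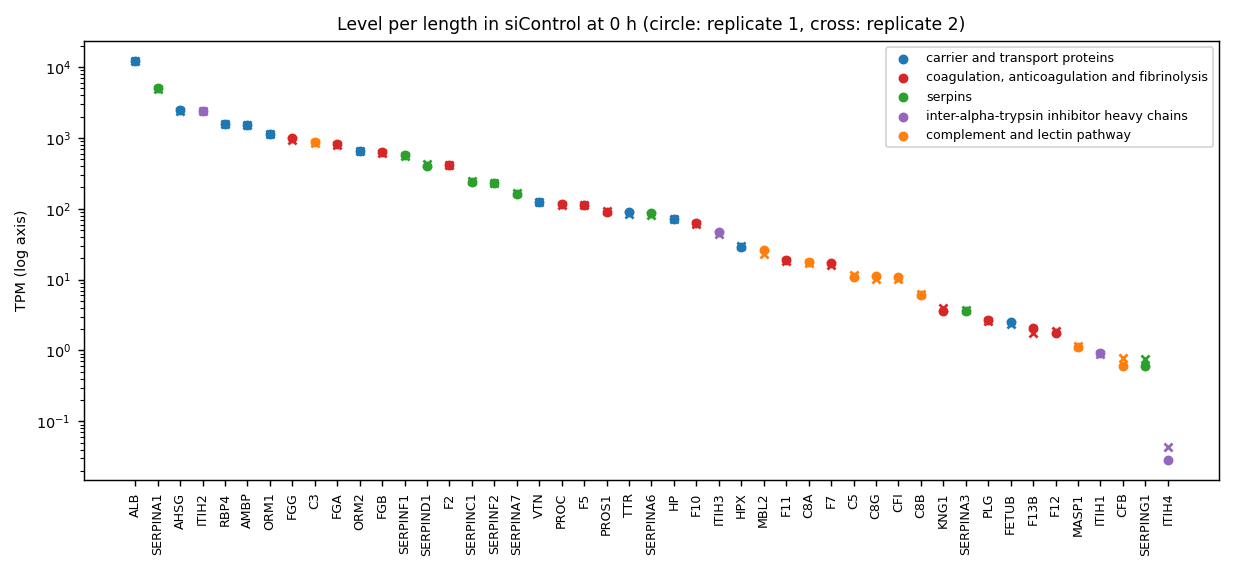
Level per length in siControl at 0 h of the 47 members with at least 1 read, in TPM on a log axis, ordered by mean; circles are replicate 1 and crosses replicate 2, coloured by role. The order runs from ALB at 12218 and 12306 TPM down to ITIH4, which had 2 and 4 reads.

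Promoters were matched by symbol in RefSeq (GRCh38.p14) for 38 of the 48 members; TTR, HP, ORM2, SERPINC1, SERPINF1, SERPINF2, SERPING1, ITIH2, C3 and C8G had no entry. The windows below run from 250 bases before to 50 bases after the start. They are shown for the fibrinogen chains, RBP4 and F10 because the levels of these members are compared below and the windows differ in the letters TTCNNNGAA, the core bound by STAT factors, which carry the acute-phase signal of interleukin-6. Capitals mark a match on either strand, the motif being its own reverse complement.
FGA, chr4:154590693-154590992, minus strand: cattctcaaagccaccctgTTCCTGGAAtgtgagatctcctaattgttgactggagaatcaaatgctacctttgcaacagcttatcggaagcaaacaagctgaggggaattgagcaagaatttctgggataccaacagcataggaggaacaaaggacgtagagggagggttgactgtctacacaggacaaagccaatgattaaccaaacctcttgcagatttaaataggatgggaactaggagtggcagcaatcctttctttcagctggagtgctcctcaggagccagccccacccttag
FGB, chr4:154562730-154563029, plus strand: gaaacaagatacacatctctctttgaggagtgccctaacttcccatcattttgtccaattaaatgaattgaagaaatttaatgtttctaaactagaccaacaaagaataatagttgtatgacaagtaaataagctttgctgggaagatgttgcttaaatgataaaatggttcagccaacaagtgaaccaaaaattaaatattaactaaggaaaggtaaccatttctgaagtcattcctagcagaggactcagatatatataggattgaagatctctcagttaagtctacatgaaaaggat
FGG, chr4:154612607-154612906, minus strand: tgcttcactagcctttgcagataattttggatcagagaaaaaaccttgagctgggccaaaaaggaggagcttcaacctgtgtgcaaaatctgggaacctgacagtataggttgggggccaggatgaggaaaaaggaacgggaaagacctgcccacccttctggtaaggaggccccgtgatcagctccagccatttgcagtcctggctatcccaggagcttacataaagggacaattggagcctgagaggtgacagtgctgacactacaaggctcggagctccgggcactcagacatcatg
RBP4, chr10:93601695-93601994, minus strand: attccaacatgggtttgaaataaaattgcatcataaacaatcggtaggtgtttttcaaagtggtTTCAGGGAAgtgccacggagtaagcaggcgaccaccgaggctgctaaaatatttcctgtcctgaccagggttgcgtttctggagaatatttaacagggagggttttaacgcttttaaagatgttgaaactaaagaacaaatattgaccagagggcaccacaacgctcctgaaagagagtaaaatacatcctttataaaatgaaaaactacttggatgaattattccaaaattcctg
F10, chr13:113122549-113122848, plus strand: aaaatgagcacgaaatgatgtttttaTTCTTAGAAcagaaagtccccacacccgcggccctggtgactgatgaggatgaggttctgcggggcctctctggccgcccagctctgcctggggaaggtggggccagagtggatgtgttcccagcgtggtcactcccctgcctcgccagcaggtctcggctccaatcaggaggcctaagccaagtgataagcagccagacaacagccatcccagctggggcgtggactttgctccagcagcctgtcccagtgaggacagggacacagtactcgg
The match began 231 bases before the start in FGA, 186 in RBP4 and 224 in F10, and these letters were not in the windows of FGB and FGG.

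Over the promoters matched, TTCNNNGAA was found in 10 of 38 (26.3%), against 6.3% of 9315 promoters of tested protein-coding genes and 7.7% of all 35116. The members with it were RBP4, VTN, FGA, F10, PROS1, SERPINA6, SERPIND1, ITIH4, CFB and MBL2. TATAAA was found in 6 of 38 (15.8%) against 5.2% and 11.5%, and CAAAGTCCA, letters of an HNF4A site, in AHSG and F10 (5.3%, against 0.3% and 0.4%).

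The members lie on 17 chromosomes, and 22 of them stand within 500 kb of another member, in 8 groups. FGB, FGA and FGG are neighbours on chromosome 4 (154563011 to 154612967 in GRCh38, GENCODE v44), and SERPINA6, SERPINA1 and SERPINA3 are neighbours on chromosome 14. ORM1 and ORM2 follow each other on chromosome 9, F7 and F10 on chromosome 13, and AHSG, FETUB, KNG1 and MASP1 on chromosome 3. In their canonical GENCODE transcripts the 46 tested members had a median 3' UTR of 253 bases, against 1321 over 11385 tested protein-coding genes, a median 5' UTR of 60.5 bases against 134, and a median coding length of 1476 against 1425 bases. The pentamer ATTTA, found in AU-rich elements of short-lived transcripts, was missing from the 3' UTR of 30 of 46 members (65.2%), against 27.4% of the tested protein-coding genes. A shorter 3' UTR holds fewer places for a pentamer, and these shares were not adjusted for length.

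At 0 h the question was whether loss of each IGF2BP altered the level of these transcripts. In siIGF2BP1, 13 of 46 members were higher and 5 lower than in siControl at an edgeR adjusted p under 0.05, against 9.43% and 6.50% of all genes tested. The median change was 0.06 on the log2 scale over the members and 0.01 over all genes. In siIGF2BP2, 8 were higher and 15 lower (all genes 6.65% and 5.47%), with medians of -0.09 and 0.02. In siIGF2BP3, 8 were higher and 6 lower (all genes 4.93% and 4.47%), with medians of -0.01 and 0.00. The 3 comparisons share the same 2 siControl libraries. HPX, ORM1, ORM2, FGB and KNG1 were called higher in each knockdown, AHSG lower in each, and 18 members were called in none. The share of all genes called in each knockdown or in none was not counted. With ERCC scaling FGB, KNG1 and AHSG were not called in siIGF2BP1, nor KNG1 in siIGF2BP2, nor AHSG in siIGF2BP3.

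The members called higher or lower at 0 h numbered 18, 23 and 14 in siIGF2BP1, siIGF2BP2 and siIGF2BP3. In siIGF2BP1 10 members were called without siControl replicate 1 and 11 without siControl replicate 2, in siIGF2BP2 13 without siControl replicate 1 and as many without siIGF2BP2 replicate 1, and in siIGF2BP3 8 without siIGF2BP3 replicate 2. Scaling to ERCC reads in place of TMM moved the counts to 4 higher and 1 lower, 7 and 1, and 6 and 0, respectively.

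In siIGF2BP1 the largest called rises were those of HPX, F12 and ORM1. HPX, which encodes the heme carrier hemopexin, measured 24.9 and 25.4 CPM on the TMM scale in the siControl libraries and 37.3 and 39.9 in the siIGF2BP1 libraries, without overlap, a log2 fold change of 0.61 (SE 0.06, adjusted p = 1.1e-09). F12, encoding the contact factor XII, measured 2.34 and 2.48 against 3.82 and 3.20 CPM, 0.55 (SE 0.19, adjusted p = 0.0358), and lost its call without siControl 0 h replicate 1 (adjusted p = 0.183) or siControl 0 h replicate 2 (adjusted p = 0.111) or siIGF2BP1 0 h replicate 1 (adjusted p = 0.343). ORM1, an orosomucoid that binds drugs and lipids, measured 229 and 233 against 315 and 328 CPM, 0.48 (SE 0.03, adjusted p = 2.24e-14). Its neighbour and near copy ORM2 moved alike, 116 and 115 against 154 and 154 CPM, 0.41 (SE 0.04, adjusted p = 1.57e-11).

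Among the falls in siIGF2BP1 were TTR, the thyroxine and retinol-complex carrier transthyretin, C5 and SERPINA7. TTR measured 46.4 and 42.8 CPM in siControl and 34.7 and 38.8 in siIGF2BP1, -0.28 (SE 0.06, adjusted p = 0.000253), and the call was lost without siIGF2BP1 0 h replicate 1 (adjusted p = 0.0609). C5, the precursor of the terminal complement fragments, measured 43.3 and 46.3 against 41.4 and 38.2 CPM, -0.17 (SE 0.06, adjusted p = 0.035), lost without siControl 0 h replicate 2 (adjusted p = 0.34) or siIGF2BP1 0 h replicate 2 (adjusted p = 0.332). SERPINA7 measured 103 and 106 against 90.8 and 96.8 CPM, -0.16 (SE 0.05, adjusted p = 0.02), lost without siControl 0 h replicate 1 (adjusted p = 0.0588) or siControl 0 h replicate 2 (adjusted p = 0.152) or siIGF2BP1 0 h replicate 1 (adjusted p = 0.3). The libraries of both groups did not overlap for any of the 3. With ERCC scaling C5 gave -0.20 (adjusted p = 0.281), F12 0.53 (adjusted p = 0.141) and SERPINA7 -0.19 (adjusted p = 0.243).

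In siIGF2BP2 the largest called rises were SERPING1, C5 and HPX. SERPING1, the C1 inhibitor, was low, at 1.03 and 1.27 CPM in siControl and 2.05 and 2.45 in siIGF2BP2, 0.95 (SE 0.28, adjusted p = 0.017), and the call was lost without siControl 0 h replicate 1 (adjusted p = 0.176) or siControl 0 h replicate 2 (adjusted p = 0.051) or siIGF2BP2 0 h replicate 2 (adjusted p = 0.148). C5 was 43.3 and 46.3 against 63.3 and 64.4 CPM, 0.51 (SE 0.05, adjusted p = 4.53e-09). HPX was 32.9 and 33.4 CPM in siIGF2BP2, 0.40 (SE 0.06, adjusted p = 9.73e-06). The siControl and siIGF2BP2 libraries of each of the 3 did not overlap.

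The largest called falls in siIGF2BP2 were AHSG, F11 and F10. AHSG, a mineral-binding carrier, measured 1288 and 1245 CPM in siControl and 975 and 1002 in siIGF2BP2, -0.36 (SE 0.03, adjusted p = 5.74e-11). F11, encoding factor XI, measured 17.9 and 17.4 against 13.8 and 14.6 CPM, -0.31 (SE 0.08, adjusted p = 0.00435), lost without siControl 0 h replicate 1 (adjusted p = 0.058) or siIGF2BP2 0 h replicate 1 (adjusted p = 0.103). F10, encoding factor X, at which both arms of coagulation meet, measured 34.8 and 33.5 against 28.3 and 28.1 CPM, -0.27 (SE 0.05, adjusted p = 0.000343). With ERCC scaling F11 gave -0.23 (adjusted p = 0.246) and F10 -0.19 (adjusted p = 0.249).

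In siIGF2BP3 the largest called rises were KNG1, HPX and FGB, and the largest called falls F10, AHSG and F2. KNG1, encoding kininogen, the source of bradykinin, measured 3.93 and 4.33 CPM in siControl and 5.63 and 6.05 in siIGF2BP3, 0.49 (SE 0.12, adjusted p = 0.00585), lost without siControl 0 h replicate 1 (adjusted p = 0.0986) or siIGF2BP3 0 h replicate 2 (adjusted p = 0.0796). HPX measured 34.9 and 30.5 CPM, 0.39 (SE 0.06, adjusted p = 3.34e-05), and FGB 653 and 632 against 765 and 793 CPM, 0.28 (SE 0.03, adjusted p = 7.74e-08). The libraries of these 3 did not overlap siControl. F10 measured 28.5 and 27.3 CPM, -0.29 (SE 0.05, adjusted p = 0.00026), and AHSG 1069 and 1039 CPM, -0.27 (SE 0.03, adjusted p = 1.48e-07). F2, encoding prothrombin, measured 246 and 248 against 223 and 215 CPM, -0.17 (SE 0.04, adjusted p = 0.00126), lost without siIGF2BP3 0 h replicate 2 (adjusted p = 0.0521). All 3 lay below both siControl libraries, and with ERCC scaling F10 gave -0.21 (adjusted p = 0.251), AHSG -0.19 (adjusted p = 0.205) and F2 -0.09 (adjusted p = 0.626).

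**Figure D2:**
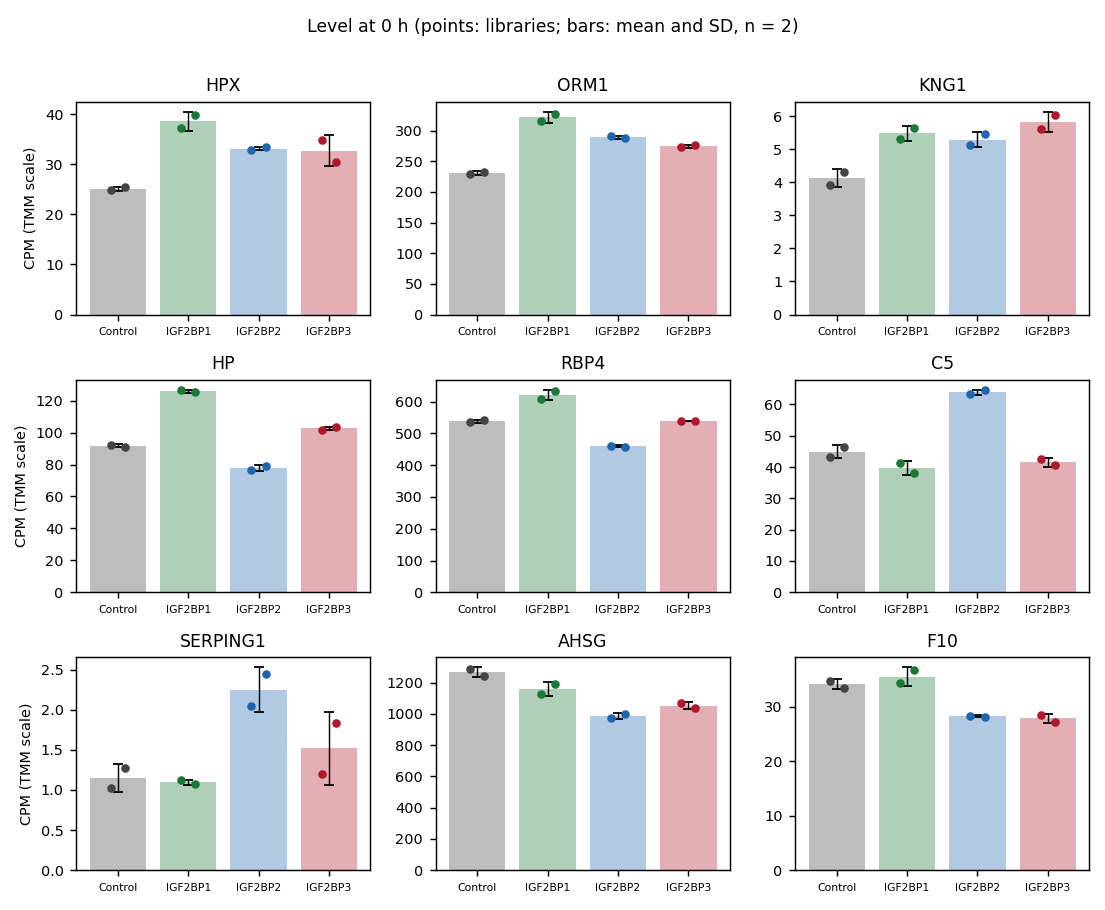
CPM on the TMM scale at 0 h of 9 members in the 4 conditions; points are the 2 libraries, bars their mean and the error bar the SD. HPX, ORM1 and KNG1 stood above siControl in each knockdown, while HP and RBP4 were highest in siIGF2BP1 and lowest in siIGF2BP2, and C5 and SERPING1 highest in siIGF2BP2.

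The fibrinogen chains, made as one protein, gave different calls, and the difference between chains was not tested. FGB measured 653 and 632 CPM in siControl, 716 and 735 in siIGF2BP1 and 751 and 787 in siIGF2BP2, with log2 fold changes of 0.17 (SE 0.03, adjusted p = 9.94e-05) and 0.26 (SE 0.03, adjusted p = 1.21e-07). FGA measured 755 and 734, 730.1 and 778 and 661 and 714 CPM in the same order and FGG 838 and 796, 855 and 876 and 727 and 767 CPM. In siIGF2BP2 FGA and FGG were lower, -0.11 (SE 0.03, adjusted p = 0.0156) and -0.13 (SE 0.04, adjusted p = 0.0155), while FGB was higher. In siIGF2BP3 FGG was higher, 0.17 (SE 0.04, adjusted p = 0.00151), and FGA gave 0.08 (SE 0.03, adjusted p = 0.161). The FGA libraries of siIGF2BP1 overlapped those of siControl, and the change of 0.02 (SE 0.03, adjusted p = 0.784) was not called. With ERCC scaling FGB in siIGF2BP1 gave 0.14 (adjusted p = 0.445) and FGA and FGG in siIGF2BP2 -0.04 (adjusted p = 0.842) and -0.05 (adjusted p = 0.757). The FGA and FGG calls in siIGF2BP2 were also lost without replicate 1 of siControl or of siIGF2BP2, and the FGG call in siIGF2BP3 without siControl 0 h replicate 2 (adjusted p = 0.0776) or siIGF2BP3 0 h replicate 2 (adjusted p = 0.0807).

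**Figure D3:**
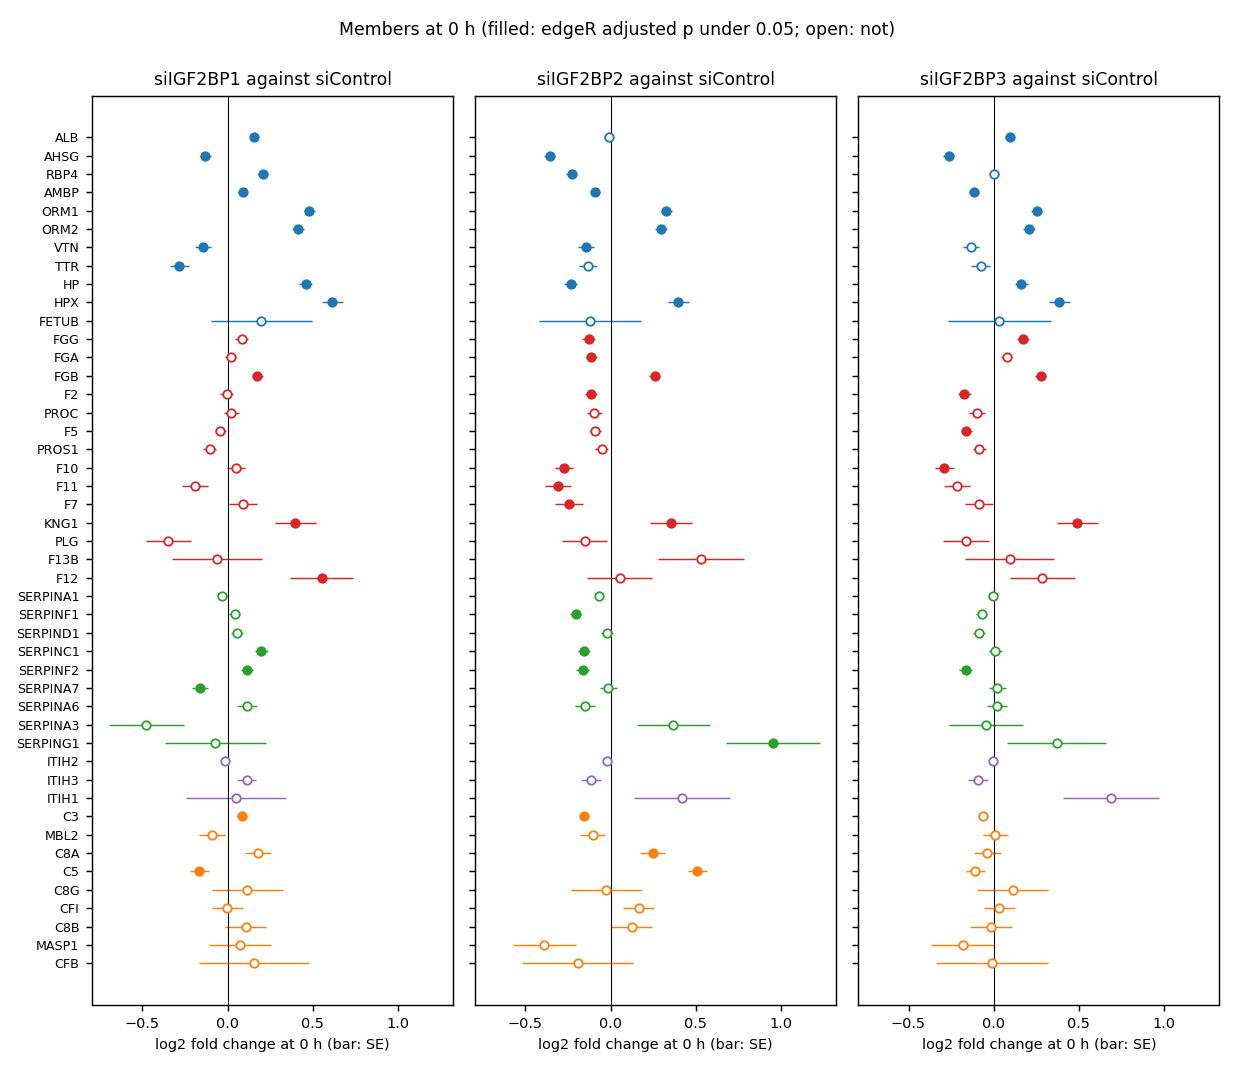
Log2 fold change at 0 h of the 46 tested members in each knockdown against siControl, grouped by role and coloured as in the plot of levels; bars are SE, filled circles passed an edgeR adjusted p of 0.05 and open circles did not. Carrier proteins hold most of the filled circles in siIGF2BP1, and coagulation factors hold 8 in siIGF2BP2.

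The counts by role stand against 9.43% of all genes higher and 6.50% lower in siIGF2BP1, 6.65% and 5.47% in siIGF2BP2, and 4.93% and 4.47% in siIGF2BP3. 7 of 11 carrier proteins were higher and 3 lower in siIGF2BP1, 3 and 5 in siIGF2BP2, and 5 and 2 in siIGF2BP3. Of 14 coagulation genes, 3 were higher and 0 lower in siIGF2BP1, 2 and 6 in siIGF2BP2, and 3 and 3 in siIGF2BP3. Of the 5 vitamin K-dependent factors (F2, F7, F10, PROC and PROS1), which need a carboxylated domain to bind membranes, 0 were higher by edgeR or DESeq2 in any knockdown, also at an unadjusted p under 0.05, and 0, 3 and 2 were lower in siIGF2BP1, siIGF2BP2 and siIGF2BP3 (1, 4 and 4 unadjusted, and 1, 3 and 2 by DESeq2). With ERCC scaling 0 of the 5 were called in any knockdown. Of 9 serpins, 2 were higher and 1 lower in siIGF2BP1, 1 and 3 in siIGF2BP2 and 0 and 1 in siIGF2BP3. The 9 tested complement genes had 1 higher and 1 lower, 2 and 1, and 0 and 0, the last with 1 lower at an unadjusted p and 0 by DESeq2. Of the 3 tested inter-alpha-trypsin inhibitor heavy chains 0 were called by edgeR or DESeq2, and at an unadjusted p 1 was higher in siIGF2BP3 (ITIH1, named after its value was seen). Of 13 tested positive acute-phase members 6 were higher in siIGF2BP1 and 6 in siIGF2BP3 with 0 lower (1 at an unadjusted p in each, 0 by DESeq2), and 5 were higher and 4 lower in siIGF2BP2. Of 6 negative acute-phase members 3 were higher and 2 lower in siIGF2BP1, 0 and 2 in siIGF2BP2 (0 and 4 at an unadjusted p, 0 and 2 by DESeq2), and 1 and 1 in siIGF2BP3. With ERCC scaling these splits were 0 and 1, 0 and 1, and 0 and 0.

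Averaged over 0, 3 and 6 h, with 6 libraries a condition, 16 members were higher and 14 lower in siIGF2BP1, against 21.2% and 18.5% of all genes, 11 and 29 in siIGF2BP2, against 17.1% and 16.7%, and 10 and 19 in siIGF2BP3, against 16.2% and 16.0%. Scaling to ERCC reads changed this balance to 14 and 3, 13 and 3, and 19 and 0, with the median over all genes shifting by up to 0.18 on the log2 scale. Of the 5 vitamin K-dependent factors 5 were lower in siIGF2BP2 and 4 in siIGF2BP3, and with ERCC scaling 0 were. Per the paper's methods each transfected plate was re-seeded into 3, so libraries of the same siRNA at different times may share a transfection. The test took the 6 libraries of a condition as independent, which can make the p-values of these averages too small.

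Among members whose libraries did not overlap siControl at 0 h, HPX, F12 and ORM1 gave the largest rises in siIGF2BP1, and TTR, PLG and SERPINA7 the largest falls. HPX ranged over the 3 times from 24.9 to 44.8 CPM (median 34.3) in siControl and from 37.3 to 62.6 CPM (median 45.7) in siIGF2BP1, a log2 fold change of 0.52 (SE 0.04, adjusted p = 1.04e-14). F12 and ORM1 gave 0.44 (SE 0.11, adjusted p = 0.00121) and 0.41 (SE 0.02, adjusted p = 1.21e-20). TTR ranged from 42.8 to 85.9 CPM (median 65.7) in siControl and from 34.7 to 70.5 CPM (median 48.3) in siIGF2BP1, -0.33 (SE 0.03, adjusted p = 5.5e-11). PLG, plasminogen, ranged from 5.40 to 11 CPM (median 7.75) in siControl and from 4.04 to 8.38 CPM (median 6.61) in siIGF2BP1, -0.33 (SE 0.08, adjusted p = 0.000621), and SERPINA7 gave -0.21 (SE 0.03, adjusted p = 2.22e-07). These ranges span the 3 times and overlap between conditions where a level moved with time. F13B and SERPING1, whose libraries overlapped siControl at 0 h, gave larger falls of -0.45 (SE 0.15, adjusted p = 0.016) and -0.44 (SE 0.17, adjusted p = 0.0346), which lost their calls on leaving out any of 3 and 7 of the 12 libraries and with ERCC scaling, -0.39 (adjusted p = 0.0661) and -0.38 (adjusted p = 0.0712).

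In siIGF2BP2 the largest rises by the same rule were SERPING1, SERPINA3 and C5. SERPINA3, an inhibitor of neutrophil proteases, ranged from 1.18 to 4.39 CPM (median 1.43) in siControl and from 1.49 to 5.65 CPM (median 2.41) in siIGF2BP2, 0.55 (SE 0.14, adjusted p = 0.00249). SERPING1 and C5 gave 0.55 (SE 0.16, adjusted p = 0.00542) and 0.47 (SE 0.03, adjusted p = 3.2e-15). Lower were AHSG, -0.34 (SE 0.02, adjusted p = 6.97e-18), F11, -0.32 (SE 0.04, adjusted p = 2.38e-07), and RBP4, which ranged from 535 to 1059 CPM (median 832) in siControl and from 457 to 853 CPM (median 668) in siIGF2BP2, -0.28 (SE 0.02, adjusted p = 2.63e-16). In siIGF2BP3 ITIH1, a hyaluronan-binding heavy chain, ranged from 0.936 to 2.32 CPM (median 1.5) in siControl and from 1.41 to 3.12 CPM (median 2.01) in siIGF2BP3, 0.56 (SE 0.16, adjusted p = 0.00623), and lost its call without siIGF2BP3 3 h replicate 1 (adjusted p = 0.0601). KNG1 and F12 were also higher, 0.42 (SE 0.07, adjusted p = 9.51e-06) and 0.39 (SE 0.11, adjusted p = 0.00523). MASP1, a protease of the lectin pathway, ranged from 3.24 to 3.90 CPM (median 3.63) in siControl and from 2.09 to 3.27 CPM (median 2.97) in siIGF2BP3, -0.33 (SE 0.11, adjusted p = 0.0202), and lost its call without siControl 6 h replicate 2 (adjusted p = 0.0584) or siIGF2BP3 0 h replicate 1 (adjusted p = 0.0602) or siIGF2BP3 3 h replicate 2 (adjusted p = 0.0819) or siIGF2BP3 6 h replicate 2 (adjusted p = 0.0808). F11 and AHSG were lower, -0.28 (SE 0.05, adjusted p = 4.61e-06) and -0.26 (SE 0.02, adjusted p = 3.74e-14). With ERCC scaling AHSG, F11 and MASP1 gave -0.08 (adjusted p = 0.114), -0.10 (adjusted p = 0.185) and -0.15 (adjusted p = 0.307).

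Differences between the knockdowns were tested directly on the same average. Between siIGF2BP2 and siIGF2BP1 9 members were higher and 24 lower (all genes 20.6% and 22.4%), between siIGF2BP3 and siIGF2BP1 5 and 22 (17.6% and 20.3%), and between siIGF2BP3 and siIGF2BP2 12 and 8 (15.1% and 15.3%). With ERCC scaling the 3 splits were 10 and 13, 14 and 4, and 12 and 3. On the TMM scale 11 members were called in opposite directions against siControl in at least 1 pair of knockdowns. The share of all genes with such a pattern was not counted. With ERCC scaling only 3, 3 and 0 members were lower than siControl in siIGF2BP1, siIGF2BP2 and siIGF2BP3. HP, haptoglobin, measured 92.4 and 91.0 CPM in siControl at 0 h, 127 and 125 in siIGF2BP1, 76.5 and 79.4 in siIGF2BP2 and 102 and 103 in siIGF2BP3, and the 4 conditions did not overlap. Its difference, siIGF2BP2 minus siIGF2BP1, was -0.63 (SE 0.02, adjusted p = 5e-24). RBP4 measured 535 and 542, 609 and 633, 461 and 457 and 539 and 539.8 CPM, with -0.44 (SE 0.02, adjusted p = 2.81e-22) for the same difference. C5 differed the other way, 0.57 (SE 0.03, adjusted p = 1.16e-17), as did SERPING1, 0.99 (SE 0.16, adjusted p = 4.6e-06), and SERPINA3, 0.70 (SE 0.15, adjusted p = 0.000164). SERPINC1, antithrombin, gave -0.39 (SE 0.02, adjusted p = 1.46e-17). ALB, at 9846 and 9874 CPM in siControl, 10731 and 11230.4 in siIGF2BP1, 9611 and 9941 in siIGF2BP2 and 10554 and 10478 in siIGF2BP3 at 0 h, gave -0.18 (SE 0.01, adjusted p = 2.23e-13) for this difference.

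Loss after transcription was blocked was measured on the ERCC scale, which follows each transcript against spike-in added in proportion to total RNA. In siControl 10 of 46 members fell over 6 h and 0 rose by edgeR, against 80.3% and 0.251% of all genes tested. The counts at an unadjusted p under 0.05 were 10 and 0, DESeq2 gave 9 and 0, and 6 members were called without siControl replicate 1 at 0 h. The median log2 change over 6 h was -0.02 for the members and -0.89 for all genes, and 45 of 46 members lay above that median. At 6 h a median of 98.6% of the 0 h level was left for the members and 55.3% for 12179 genes averaging 1 CPM or more. The members' share of gene reads in siControl was 3.03 ± 0.02% at 0 h, 3.87 ± 0.01% at 3 h and 4.41 ± 0.01% at 6 h (SD, n = 2).

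The transcript lost fastest was SERPINA3. Its libraries held 4.23 and 4.39 CPM on the TMM scale at 0 h, and on the ERCC scale 24.8 and 21.3% of the 0 h mean was left at 3 h and 15.6 and 17.1% at 6 h, a log2 change of -2.67 (SE 0.38, adjusted p = 1.48e-06) and a half-lifetime of 1.75 h (range 1.64 to 1.88 h over the 8 choices of 1 library per time). Every 3 h and 6 h library lay below both 0 h libraries. A gene sharing 31.7% of its exonic bases had 81 and 113 reads at 0 h against 271 and 366 for SERPINA3, and the part of that overlap in this value was not tested. Most of the loss came in the first 3 h, -2.12 (SE 0.25, adjusted p = 1.99e-16) from 0 to 3 h and -0.49 (SE 0.28, adjusted p = 0.113) from 3 to 6 h. MASP1, the lectin pathway protease, fell by a log2 change of -0.87 (SE 0.21, adjusted p = 0.000736), with a half-lifetime of 7.74 h (6.36 to 9.93 h). Both are at a mean CPM under 5, at 31 to 402 reads a library for SERPINA3 and 71 to 297 for MASP1.

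Among members averaging 5 CPM or more, the 4 with the largest loss in siControl were F7, MBL2, C5 and F11. F7, factor VII, which starts the extrinsic pathway, had 75 and 63.7% left at 6 h, -0.53 (SE 0.12, adjusted p = 0.000296), and a half-lifetime of 11.8 h (7.30 to 33.4 h). MBL2, mannose-binding lectin, had 72.1 and 70.5% left, -0.49 (SE 0.13, adjusted p = 0.00137), and a half-lifetime of 9.61 h (6.47 to 21.5 h), and its call was lost without siControl 0 h replicate 1 (adjusted p = 0.0742). C5 had 81.1 and 73.8% left, -0.37 (SE 0.10, adjusted p = 0.00245), and 12.5 h (9.58 to 17.7 h). F11 had 76.8 and 79.5% left, -0.35 (SE 0.10, adjusted p = 0.00304), and 19.9 h (12.4 to 56.6 h), and lost its call without a filter on low counts, -0.35 (adjusted p = 0.0606). In all 4 both 6 h libraries lay below both 0 h libraries. C8G, which averaged 3.36 CPM and so lay below that minimum, SERPINA7, PROC and F5 also fell, by log2 changes of -0.56, -0.32, -0.28 and -0.21. C8G, PROC and F5 lost their calls without siControl 0 h replicate 1 or siControl 6 h replicate 2, and C8G by DESeq2, -0.56 (adjusted p = 0.0555).

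Of the same members RBP4, SERPINA1, PLG and VTN had the 4 smallest losses, and edgeR called 0 of the 4. RBP4 had 112 and 100.0% of its 0 h mean at 6 h, 0.09 (SE 0.08, adjusted p = 0.348), and SERPINA1 112 and 99.1%, 0.08 (SE 0.09, adjusted p = 0.437). PLG had 104 and 105% and VTN, vitronectin, 113 and 96.6%. ALB had 97.5 and 97.2% at 6 h and 106 and 93.7% at 0 h, so that its change of -0.04 (SE 0.08, adjusted p = 0.653) lay within the distance between the 0 h libraries. ORM1 and ORM2 gave 0.05 (SE 0.08, adjusted p = 0.605) and 0.04 (SE 0.08, adjusted p = 0.679), and FGA, FGB and FGG -0.15 (SE 0.08, adjusted p = 0.087), 0.01 (SE 0.08, adjusted p = 0.906) and -0.11 (SE 0.09, adjusted p = 0.259).

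**Figure D4:**
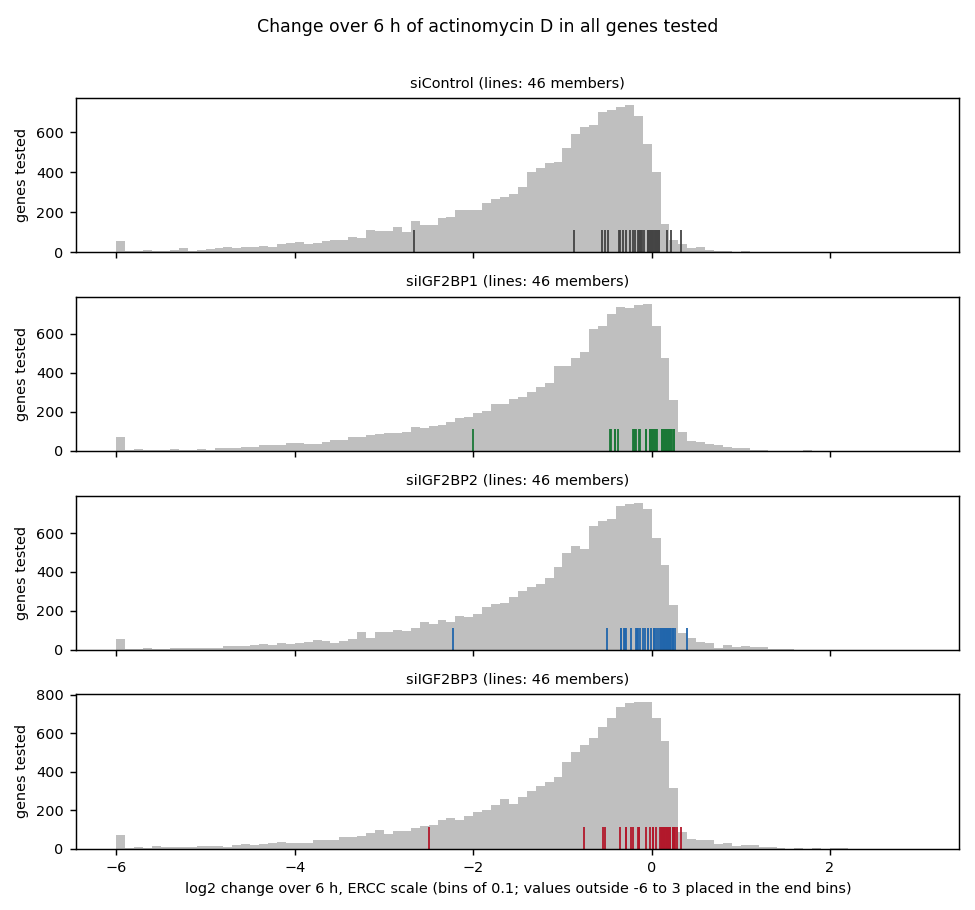
Histogram of the log2 change over 6 h on the ERCC scale in all 13136 genes tested (grey, bins of 0.1), 1 panel per condition, with the 46 members as coloured lines. In siControl 41 of 46 members lay at or above percentile 75 of all tested genes, and 40, 39 and 37 did in siIGF2BP1, siIGF2BP2 and siIGF2BP3, while SERPINA3 lay lowest, at -2.67, -2.0, -2.23 and -2.50 in the 4 conditions.

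A half-lifetime could be given for 18 of 46 members in siControl, since the other 28 had a mean decay rate at or below 0, against 9.36% of the 12179 genes. 9 members had a half-lifetime under 24 h (19.6%, against 78.1% of all genes, whose median was 6.22 h). The number with a value was 10 without siControl replicate 1 at 0 h and 34 without siControl replicate 2 at 0 h, so long half-lifetimes were not measurable at this spread. In the knockdowns 17, 20 and 14 members had a value, and SERPINA3 had 2.34 h, 2.05 h and 2.0 h.

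By role, 4 of 9 tested complement genes and 4 of 14 coagulation genes fell over 6 h in siControl, against 2 of 9 serpins, 0 of 11 carriers and 0 of 3 heavy chains. Of all genes tested 80.3% fell. Between 0 and 3 h 3 members fell and 2 rose (61.3% and 0.906% of all genes), and between 3 and 6 h 6 fell and 0 rose (64.9% and 0.152%). C5 and MBL2 were called as fallen in the first interval, -0.30 (SE 0.09, adjusted p = 0.00266) and -0.38 (SE 0.11, adjusted p = 0.00124). F7 and MASP1 were called in the second, -0.28 (SE 0.12, adjusted p = 0.0297) and -0.54 (SE 0.22, adjusted p = 0.0238). KNG1 fell in the second, -0.43 (SE 0.16, adjusted p = 0.0139), and gave 0.30 (SE 0.16, adjusted p = 0.0962) in the first. At 3 h F7 had 82.1 and 86.6% of its 0 h mean left and MASP1 81.4 and 76.8%. C5 had 83.8 and 79.0% left and MBL2 77.5 and 76.1%. The difference between the intervals was not tested. Leaving out siControl replicate 1 at 0 h gave 16 calls in the first interval, and leaving out either 3 h library gave 3; in the second, 1 call was left without either 3 h library and 0 without siControl replicate 2 at 6 h. The first-interval calls of C5 and MBL2 were lost without siControl 3 h replicate 2 (adjusted p = 0.0577) and siControl 0 h replicate 1 (adjusted p = 0.274), respectively.

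On the TMM scale, set by the bulk of transcripts, 43 of 46 members rose and SERPINA3 fell over 6 h in siControl, with a median change of 0.85 for the members and -0.02 for all genes. The share of all genes called on this scale is not given here. The members' median lay 0.87 above that of all genes on the ERCC scale and 0.86 above on the TMM scale. F7, MBL2, C5 and F11 rose on the TMM scale, where they fell on the ERCC scale. In siControl the members' median percentile among all tested genes was 93.8, and 27 of 46 lay above percentile 90.

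In the knockdowns 4 members fell and 9 rose in siIGF2BP1 (all genes 69.1% and 2.69%), 7 and 11 in siIGF2BP2 (71.3% and 2.44%) and 4 and 13 in siIGF2BP3 (67.2% and 2.91%). The members' medians were 0.04, 0.11 and 0.14, against -0.69, -0.71 and -0.66 over all genes. SERPINA3 fell in each, with 27.8 and 23.8% left at 6 h in siIGF2BP1, 26.3 and 17.9% in siIGF2BP2 and 21.2 and 15.9% in siIGF2BP3. MBL2 fell in each as well, -0.41 (SE 0.13, adjusted p = 0.00713), -0.31 (SE 0.13, adjusted p = 0.0334) and -0.36 (SE 0.13, adjusted p = 0.0167). The MBL2 call was lost in siIGF2BP2 without siIGF2BP2 0 h replicate 1 (adjusted p = 0.133) or siIGF2BP2 0 h replicate 2 (adjusted p = 0.192) or siIGF2BP2 6 h replicate 1 (adjusted p = 0.113), and without a filter on low counts, -0.31 (adjusted p = 0.0935). In siIGF2BP3 it was lost without siIGF2BP3 0 h replicate 1 (adjusted p = 0.0577) or siIGF2BP3 0 h replicate 2 (adjusted p = 0.0933) or siIGF2BP3 6 h replicate 2 (adjusted p = 0.107). TTR, RBP4, AMBP, VTN, SERPINA1, ORM1 and ORM2 were called as risen in each knockdown, but all 7 lost the call in each on leaving out 1 library, with the exception of ORM2 in siIGF2BP3. VTN in siIGF2BP3 also lost it by DESeq2, 0.19 (adjusted p = 0.0539). RBP4, for one, had 115 and 116% of its 0 h mean at 6 h in siIGF2BP1, 105 and 124% in siIGF2BP2 and 123 and 108% in siIGF2BP3. On the TMM scale the splits of risen and fallen members were 39 and 1, 42 and 1, and 41 and 1. The members' medians on that scale were 0.71, 0.78 and 0.78, against -0.01, -0.04 and -0.01 over all genes. The share of all genes called on it is not given here. The balance on the ERCC scale rested on single libraries. In siIGF2BP1 the 9 risen and 4 fallen became 2 and 4 without replicate 1 at 0 h, 1 and 3 without replicate 2 at 0 h, and 4 and 3 or 3 and 4 without replicate 1 or 2 at 6 h. In siIGF2BP2 the 11 and 7 became 2 and 3 or 6 and 1 without replicate 1 or 2 at 0 h, and 0 and 10 without replicate 2 at 6 h. In siIGF2BP3 the 13 and 4 became 2 and 4 or 5 and 2 without replicate 1 or 2 at 0 h, and 2 and 7 without replicate 1 at 6 h.

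The slopes of the knockdowns were then compared with that of siControl, and a positive difference means less loss in the knockdown. By edgeR, 0 of 46 members differed in any knockdown, against 0.0152%, 0% and 0.0228% of all genes in siIGF2BP1, siIGF2BP2 and siIGF2BP3. DESeq2 also called 0 members. At an unadjusted p under 0.05 the edgeR counts were 0, 1 and 0 members, against 1436, 896 and 2113 of all 13136 genes. DESeq2 gave 0, 1 and 0 members, against 1238, 737 and 1879 of all genes. The differences were above 0 for 39, 40 and 41 of 46 members on the ERCC scale, and for 6, 12 and 7 on the TMM scale. The median difference over all genes on the ERCC scale was 0.19, 0.17 and 0.22, and 6, 20 and 8 members lay above it. The smallest p-values were those of FGA and PROS1 in siIGF2BP1, 0.22 (SE 0.11, adjusted p = 0.466) and 0.18 (SE 0.11, adjusted p = 0.477). In siIGF2BP2 they were those of AHSG and C8B, 0.23 (SE 0.11, adjusted p = 0.643) and 0.33 (SE 0.18, adjusted p = 0.643), and in siIGF2BP3 those of ORM2 and F10, 0.22 (SE 0.11, adjusted p = 0.311) and 0.27 (SE 0.13, adjusted p = 0.314). SERPINA3 gave 0.67 (SE 0.55, adjusted p = 0.57), 0.44 (SE 0.53, adjusted p = 0.731) and 0.17 (SE 0.56, adjusted p = 0.877).

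**Figure D5:**
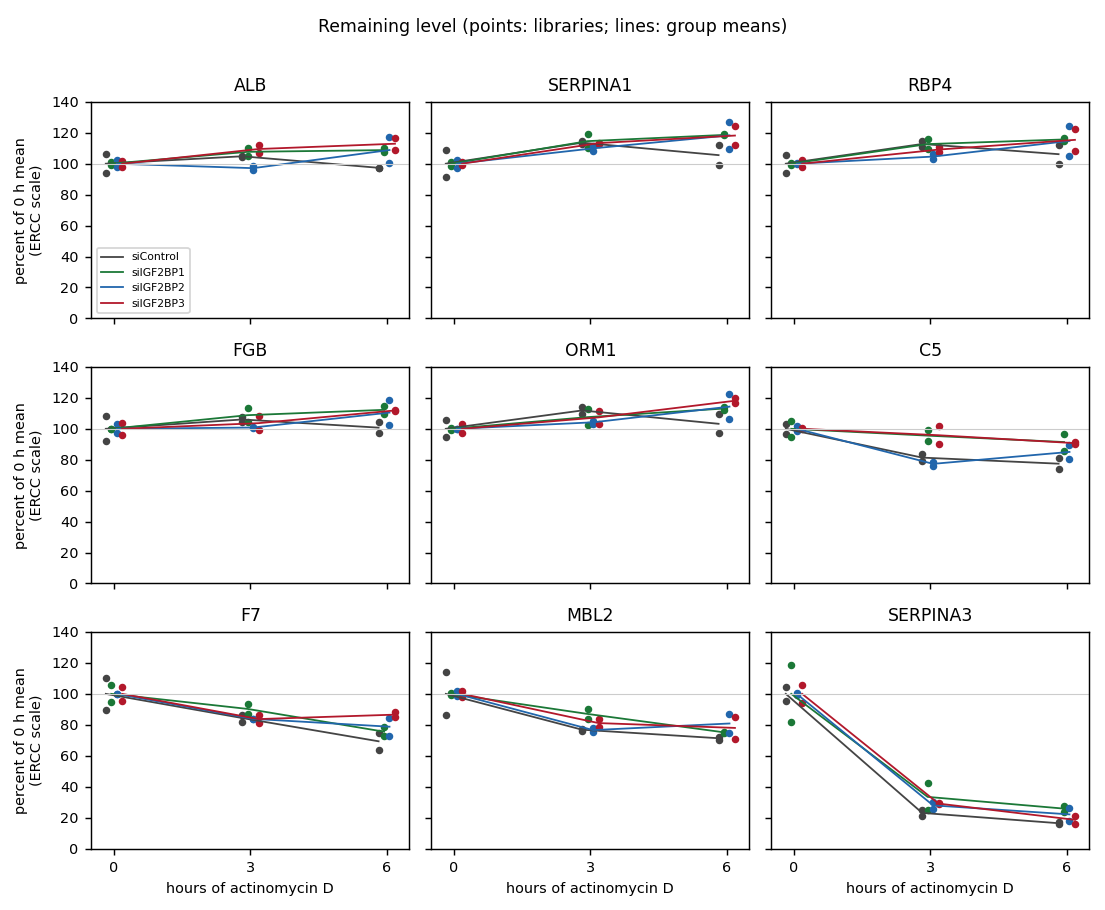
Percent of the 0 h mean on the ERCC scale left at 3 and 6 h of actinomycin D for 9 members in the 4 conditions; points are libraries and lines join group means. At 6 h the libraries of ALB, SERPINA1, RBP4, FGB and ORM1 lay at 97% to 127%, those of C5, F7 and MBL2 at 63.7% to 96.9% and those of SERPINA3 at 15.6% to 27.8%.

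Of 81 other plasma protein genes, 48 were tested. Averaged over time 11 were higher and 9 lower in siIGF2BP1, 9 and 19 in siIGF2BP2, and 3 and 17 in siIGF2BP3, with medians of 0.01, -0.04 and -0.07. Of all genes 21.2% and 18.5%, 17.1% and 16.7%, and 16.2% and 16.0% were called, and ERCC scaling turned the splits of the 48 to 12 and 6, 16 and 5 and 19 and 4. The median over all genes was 0.00, 0.01 and 0.00. CP, ceruloplasmin, was lower in siIGF2BP1 and siIGF2BP3, -0.53 (SE 0.03, adjusted p = 8.18e-18) and -0.18 (SE 0.03, adjusted p = 2.09e-06), and higher in siIGF2BP2, 0.15 (SE 0.03, adjusted p = 4.08e-05), with the siIGF2BP3 call lost on ERCC scaling, -0.01 (adjusted p = 0.917). F3, tissue factor, was higher in siIGF2BP1 and siIGF2BP2, 0.42 (SE 0.07, adjusted p = 4.15e-06) and 0.31 (SE 0.07, adjusted p = 0.000331), and lower in siIGF2BP3, -0.55 (SE 0.07, adjusted p = 1.87e-07). HAMP, the iron hormone hepcidin, was higher in each, 0.47 (SE 0.13, adjusted p = 0.00308), 0.55 (SE 0.12, adjusted p = 0.000524) and 0.45 (SE 0.13, adjusted p = 0.00753). Its siIGF2BP1 call was lost without siIGF2BP1 6 h replicate 2 (adjusted p = 0.123) and its siIGF2BP3 call without siControl 6 h replicate 2 (adjusted p = 0.0514) or siIGF2BP3 6 h replicate 2 (adjusted p = 0.0612). PGLYRP2 was higher in siIGF2BP1, 0.58 (SE 0.23, adjusted p = 0.0436), PLAT in siIGF2BP3, 0.68 (SE 0.22, adjusted p = 0.0172), and in siIGF2BP2 SERPINA10 and LRG1 were lower, -0.54 (SE 0.08, adjusted p = 8.11e-07) and -0.33 (SE 0.06, adjusted p = 9.96e-06). The PGLYRP2 call was lost on leaving out any of 10 of the 12 libraries, and that of PLAT without siControl 6 h replicate 2 (adjusted p = 0.0626) or siIGF2BP3 6 h replicate 2 (adjusted p = 0.125). Over 6 h in siControl 21 of the 48 fell, with a median of -0.26, against 80.3% and a median of -0.89 over all genes tested. The 21 were 9 of 14 other coagulation and fibrinolysis genes, 7 of 18 other complement genes and 5 of 16 remaining plasma proteins.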

How the data were processed

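RNA-seq counts of genes were deposited for 24 HepG2 libraries. Per the paper's methods, the authors added ERCC spike-in to total RNA, trimmed reads with Trimmomatic 0.39, aligned them with HISAT2 2.1.0 to hg38 and assigned them to GENCODE v29 genes by HTSeq, its overlap settings not given in the sources used here. The deposited counts are whole reads, not normalised. HTSeq's 5 summary rows (13.6% to 17.1% of reads), 45 chromosome Y copies and the 92 ERCC rows were kept out of library sizes.

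Genes at 1 CPM or more in at least 2 libraries (13136) were tested in R 4.3.3 with the quasi-likelihood test of edgeR 4.0.16, with Benjamini-Hochberg adjustment over all of them and a threshold of 0.05. Levels used 12 group means and TMM scaling. Loss used a slope on time per siRNA, scaled by summed ERCC reads, given as the log2 change over 6 h. Both models took the libraries as independent, though those of the same siRNA at different times may share a transfected plate. SE is the change divided by the root of F. Half-lifetime is the natural log of 2 over the mean decay rate of 0 to 3 h and 0 to 6 h, with no value at a rate of 0 or below. TPM used GENCODE v44 exon lengths. DESeq2 1.42.0, other scalings and filters, a replicate block and leaving out each library were alternatives. The tests were checked on simulated counts drawn independently for each library. That check did not cover shared plates or error in the ERCC scaling. Replicate libraries differed beyond counting noise (3.25 to 8.56 chi-square units for each degree of freedom).

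The members and lists were chosen with earlier results of these data known. Named are the 6 members highest per length, the 3 largest called rises and falls per knockdown with libraries not overlapping siControl at 0 h, the 4 largest and 4 smallest losses among members averaging 5 CPM or more, the 2 smallest p per slope difference, the fibrinogen chains, ALB, ORM1, ORM2 and members under 1 CPM, with 2 rises and falls per knockdown of the other plasma protein genes. Other members were named after their values were seen. Some items are not reported here.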

Additional observations from a re-analysis of the deposited data

How the results depend on the processing

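Scaling moved the calls most. With summed ERCC reads in place of TMM, 5, 8 and 6 members passed at 0 h for IGF2BP1, IGF2BP2 and IGF2BP3 knockdown and 17, 16 and 19 averaged over time. Over 6 h TMM scaling gave 44, 40, 43 and 42 calls in siControl and the same 3 knockdowns, and library-size scaling 40, 35, 34 and 35. Without a filter on low counts 6, 8 and 11 members were called over 6 h in the knockdowns. TMM scaling gave 42 calls from 0 to 3 h and 36 from 3 to 6 h, and left 1, 1, 1 and 2 members with a half-lifetime. The log2 change over 6 h turned positive on the TMM scale for C5 0.50 (siControl), 0.54 (siIGF2BP1), 0.44 (siIGF2BP2), 0.50 (siIGF2BP3), for F11 0.52 (siControl), 0.50 (siIGF2BP1), 0.52 (siIGF2BP2), 0.41 (siIGF2BP3), for F7 0.34 (siControl), 0.27 (siIGF2BP1), 0.33 (siIGF2BP2), 0.43 (siIGF2BP3) and for MBL2 0.39 (siControl), 0.26 (siIGF2BP1), 0.36 (siIGF2BP2), 0.28 (siIGF2BP3). With library-size scaling it turned positive for C5 0.18 (siControl), 0.24 (siIGF2BP1), 0.16 (siIGF2BP2), 0.21 (siIGF2BP3), for F11 0.20 (siControl), 0.20 (siIGF2BP1), 0.24 (siIGF2BP2), 0.12 (siIGF2BP3), for F7 0.024 (siControl), 0.052 (siIGF2BP2) and for MBL2 0.071 (siControl), 0.090 (siIGF2BP2). The median over all genes moved with each scaling.

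Leaving out 1 library at a time, 10 to 12, 13 to 16 and 8 to 13 members were called at 0 h, 24 to 30, 34 to 39 and 27 to 31 averaged over time, 30 to 33, 25 to 28 and 18 to 21 between knockdowns, 6 to 15, 4 to 13, 5 to 18 and 6 to 18 over 6 h, 3 to 16 from 0 to 3 h, 0 to 8 from 3 to 6 h, and 0 for each difference in slope. A half-lifetime could be given for 10 to 34, 14 to 21, 18 to 25 and 12 to 16 members. Where a group kept 1 library, that library was assumed to vary like the other groups.

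The paper's methods split each transfected plate over the times, but the labels do not say whether replicate numbers follow the plates. Differences between replicates 1 and 2 correlated at -0.06 to 0.2 between conditions. Between times they correlated at 0.18 to 0.24 in siIGF2BP3 and at -0.03 to 0.06 in the other conditions. With a replicate block the calls were 19, 23 and 14 at 0 h, 30, 39 and 29 averaged over time, 10, 17, 20 and 18 over 6 h, 5 and 6 in the phases and 0 for each difference in slope. Of the values of single members under the alternatives other than leaving out a library, 412 kept direction and side of the threshold, 27 lost their call, 14 gained one and 28 turned. Low members such as SERPING1, ITIH1 and F12, at few reads, had wide errors, and 2 libraries a group limit every test.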
